A study of Mus musculus with 2 samples.

Results

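The 9 genes described here encode fetal RNA-binding and chromatin proteins: Lin28a, Lin28b, Igf2bp1, Igf2bp2, Igf2bp3, Hmga1, Hmga2, Trim71 and Arid3b. They were taken by symbol from a table of 24369 gene rows, and each symbol matched 1 row. The table holds 2 libraries of sorted alveolar type 2 cells (type II pneumocytes), the lung cells that make surfactant, from wild-type (WT) C57BL6 mice. One library came from postnatal day 28 (P28) and 1 from postnatal day 7 (P7), and the labels name no treatment, transgene or number of animals for either. Levels are RPKM, that is, reads per kilobase of transcript after scaling for library depth. With 1 library per age there is no replicate check and no p-value, and "higher" and "lower" compare these 2 libraries. The question is which of these fetal genes are already without reads in type 2 cells at P7, and how far the others differ at P28.

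LIN28 proteins bind the precursors of let-7 microRNAs and block their maturation, and let-7 in turn represses the transcripts of Lin28, Hmga2, the Igf2bp genes, Trim71 and Arid3b. IGF2BP proteins bind and stabilise messenger RNAs, among them that of insulin-like growth factor 2. HMGA proteins bind AT-rich DNA through AT-hooks and alter chromatin in proliferating fetal cells. Most of these genes are highly expressed in embryos, are low in most adult tissues and reappear in tumours, which is why they are called oncofetal.

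The RPKM values were scaled to about 24593100 reads at P28 and 17611800 reads at P7, estimated from the spacing of the lowest values. Fewer reads lie behind the gene values themselves. Reads recovered over the 23969 rows with a gene length summed to about 7414740 at P28 and 4856060 at P7. All 12 type 2 cell markers had at least 47.5 RPKM at P28 and 60.1 RPKM at P7, and Sftpc, the surfactant protein C gene, led both libraries with 24085 RPKM at P28 and 13343 RPKM at P7. Xist had 0.245 RPKM at P28 and 52.7 RPKM at P7, while all 4 Y-linked genes examined had reads at P28 and none at P7. Age and sex therefore cannot be told apart in any difference between these libraries.

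The let-7 family is the link between these genes, so its sequences are shown first, with the seed (bases 2 to 8) in capitals, 5′ to 3′, from RefSeq (GRCm38.p6).
mmu-let-7a-5p: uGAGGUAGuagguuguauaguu
mmu-let-7g-5p: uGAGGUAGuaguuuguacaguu
mmu-miR-98-5p: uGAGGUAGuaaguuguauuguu
mmu-miR-202-3p: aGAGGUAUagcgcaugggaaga
The 9 mature sequences of let-7a to let-7i and miR-98 shared the seed of let-7a. The related miR-202-3p had a seed of its own and was not searched further.

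A match to the let-7 seed in a 3′ UTR reads CTACCTC on the transcript strand, and an 8-letter match adds an A (CTACCTCA). In the longest annotated 3′ UTR, all 9 genes held at least 1 match, against 9.25% of 20040 genes. Trim71, Lin28b, Igf2bp1 and Hmga2 held 4 matches each, a number that 0.0599% of genes reached. Lin28a held 2, and Igf2bp2, Igf2bp3, Hmga1 and Arid3b held 1 each. The 3′ UTRs of these genes were 1183 to 6337 bases long, against a median of 994 bases over all genes. Per kilobase, the matches ranged from 0.463 in Arid3b to 1.33 in Hmga2, against 0.0703 over all 3′ UTRs. Members of this list are known let-7 targets, so the matches describe them and are no independent finding. A match is not by itself a working site.

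One match per gene is given here, the first 8-letter match after the stop codon or, for Hmga1 and Arid3b, their single 7-letter match (GRCm38, GENCODE M21, transcript strand, match in capitals).
Hmga2, chr10:120364222-120364251, minus strand: ggggcgccgacattcaatttCTACCTCAgc
Lin28b, chr10:45381020-45381049, minus strand: ccttcacccgggcgggaagtCTACCTCAtg
Trim71, chr9:114512470-114512499, minus strand: agtacaacattgcctaagtcCTACCTCAgc
Igf2bp1, chr11:95961776-95961805, minus strand: gcagtgctgtgcgaagtaaaCTACCTCAag
Lin28a, chr4:134005187-134005216, minus strand: ggagtgcacagcctgttgaaCTACCTCAtt
Igf2bp2, chr16:22059471-22059500, minus strand: gaaaaacacacaaataaaagCTACCTCAgg
Igf2bp3, chr6:49086785-49086814, minus strand: aaacgtgcatttttactcaaCTACCTCAgg
Hmga1, chr17:27563271-27563300, plus strand: atcttctcctctgttcacaaaCTACCTCtg
Arid3b, chr9:57790360-57790389, minus strand: tgtttatatttcaataaagctCTACCTCtt
The matches of Lin28b and Hmga2 start 36 and 58 bases after the stop codon, and those of Trim71 begin at 166 bases. In Arid3b the match lies 2148 bases after the stop codon in a 3′ UTR of 2160 bases. All 4 matches of Trim71 were 8-letter matches, against 1 of 4 in Hmga2 and in Lin28b.

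**Figure D1:**
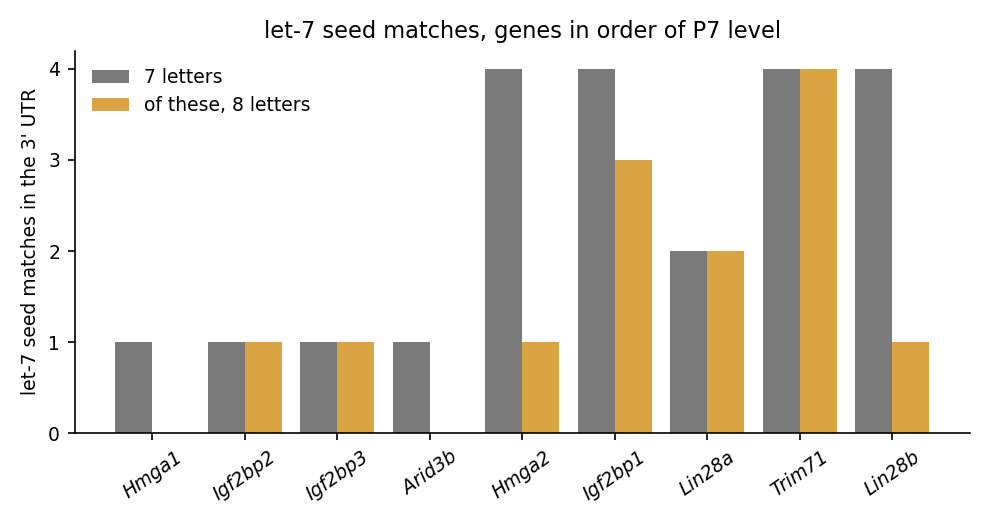
Number of let-7 seed matches in the longest 3′ UTR of each gene (vertical axis), with genes in order of their level at P7; grey bars count the 7-letter matches and yellow bars those that are also 8-letter matches. The 4 genes at the left, which are those of 1 RPKM or more at P7, had 1 match each, and the others had 2 to 4. Those 4 genes also had the shortest 3′ UTRs of the list, 1183 to 2160 bases against 2775 to 6337. Per kilobase, Hmga1 (0.845) lay within the range of the others (0.631 to 1.33), and Igf2bp2, Igf2bp3 and Arid3b (0.463 to 0.561) lay below it.

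Both LIN28 genes and Trim71 had no read at P28, and of these 3 only Lin28b had none at P7. Lin28b (chromosome 10, 45376620 to 45486395) was listed at 0 RPKM in both libraries. The floor of 3 reads stands for 0.0226 RPKM at P28 and 0.0315 RPKM at P7 in this gene. The 95% exact Poisson interval of its count of 0 reaches 0.0278 RPKM at P28 and 0.0388 RPKM at P7. Lin28a (chromosome 4, 134003330 to 134018841) had 0 RPKM at P28 and 0.0816 RPKM, about 5 reads, at P7. It was 2.34-fold lower at P28 if that library is set to a floor of 3 reads, and at least 1.28-fold lower by the 95% exact counting interval, which covers the error of both libraries. Trim71, a RING-finger and NHL-repeat protein that represses messenger RNAs in embryonic cells (chromosome 9, 114507133 to 114564369), had 0 RPKM at P28 and 0.0656 RPKM, about 11 reads, at P7. It was 5.02-fold lower at P28 against the same floor, and at least 3.50-fold lower by the counting interval. These levels are low: of 30 genes of other tissues, such as the embryonic stem cell gene Nanog (0.166 RPKM at P28 and 0.127 at P7), 5 were at or above Lin28a at P7 and 5 at or above Trim71.

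Counted over the list, 3 of the 9 genes were at or below 3 reads at P28, against 42.2% of the 23969 rows with a length, and 1 of 9 at P7, against 42.6%. Listed at exactly 0 were 34.8% of all rows at P28 and 34.7% at P7, and of 15901 rows with reads at P7 5.23% had none at P28. The 2 genes with reads at P7 and none at P28, Lin28a and Trim71, had at most about 11 reads at P7. Under 1 RPKM were 6 of 9 genes at P28, against 64.0% of all rows, and 5 of 9 at P7, against 61.8%.

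The 3 IGF2BP genes stood far apart in level, and all were lower at P28. Igf2bp2 (chromosome 16, 22059009 to 22163299), the paralog that many adult tissues retain, had 1.89 RPKM at P28 and 3.15 RPKM at P7, from 181 reads at P28 and 216 at P7. The ratio of P28 to P7 was 0.600, with a 95% exact counting interval of 0.490 to 0.735. Igf2bp3 (chromosome 6, 49085223 to 49214957) had 0.393 RPKM at P28 and 1.49 RPKM at P7, from 42 reads at P28 and 114 at P7, a ratio of 0.264 (0.181 to 0.379). Igf2bp1 (chromosome 11, 95957163 to 96005940) had 0.0776 RPKM at P28 and 0.196 RPKM at P7, from 16 reads at P28 and 29 at P7, a ratio of 0.395 (0.200 to 0.752). All 3 intervals lay below 1, those of Igf2bp2 and Igf2bp3 did not overlap, and the wide interval of Igf2bp1 overlapped both. Igf2bp1 at P28 was at a level that 5 of the 30 genes of other tissues reached. Intervals cover counting error only, since each age has 1 library. No molecular identifiers were used to tell copies of a molecule apart, so copied molecules would make the intervals too narrow.

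Both HMGA genes were lower at P28. Hmga1 (chromosome 17, 27556497 to 27563674) had 1.35 RPKM at P28 and 3.49 RPKM at P7, a ratio of 0.388 (0.283 to 0.523), and was the highest gene of the list at P7. Hmga2 (chromosome 10, 120361275 to 120476469) had 0.185 RPKM at P28 and 0.829 RPKM at P7. Its ratio of 0.223 (0.118 to 0.380) was 4.48-fold lower at P28, from about 17 reads at P28 and 56 at P7. Hmga1 belongs to a gene family whose reads the counting could split, so its values are uncertain.

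Arid3b, which encodes a DNA-binding protein with an AT-rich interaction domain (chromosome 9, 57790353 to 57836793), had 1.06 RPKM at P28 and 1.48 RPKM at P7. Both values stand for 109 reads, so the ratio of 0.716 (0.544 to 0.943) comes from the depths of the libraries alone. With each library scaled to the same upper quartile the ratio was 0.766 and the interval, 0.582 to 1.01, held 1. The same occurred with the median ratio of all genes set to 1 (0.774, 0.588 to 1.02).

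**Figure D2:**
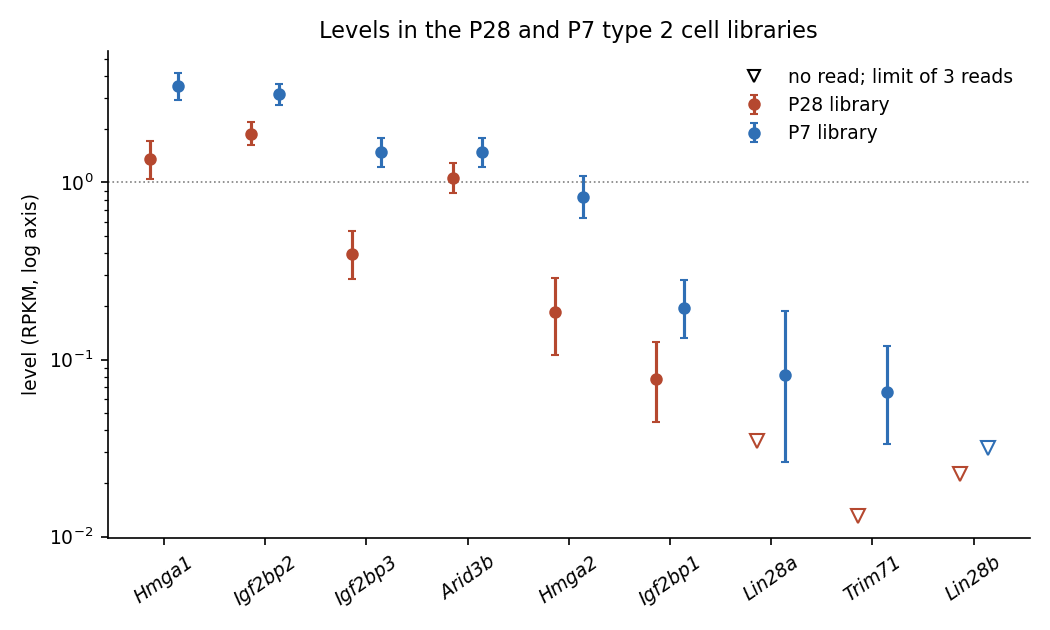
Level of each gene in RPKM on a log axis in the P28 library (red) and the P7 library (blue), with 95% exact Poisson counting intervals; open triangles mark genes with no read, at the level of 3 reads, and the dotted line is 1 RPKM. Hmga1 and Igf2bp2 lead both libraries, and Lin28a, Trim71 and Lin28b have no read at P28.

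In order of level at P28, Igf2bp2 (1.89 RPKM), Hmga1 (1.35) and Arid3b (1.06) came first, followed by Igf2bp3 (0.393), Hmga2 (0.185) and Igf2bp1 (0.0776). At P7 the order was Hmga1, Igf2bp2, Igf2bp3, Arid3b, Hmga2, Igf2bp1, Lin28a, Trim71 and Lin28b. Counting intervals of neighbours were apart at P28 between Arid3b and Igf2bp3 and between Igf2bp1 and the genes with no read. At P7 they were apart between Igf2bp2 and Igf2bp3, between Arid3b and Hmga2, and between Hmga2 and Igf2bp1. Other neighbours overlapped, including Hmga1 and Igf2bp2 in both libraries. The highest gene at P28, Igf2bp2, exceeded 73.0% of all rows, and the highest at P7, Hmga1, exceeded 81.0%.

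In all, 8 of the 9 genes had a lower RPKM at P28, none a higher one, and Lin28b had no read in either. For all 8 the counting interval of the ratio lay below 1, as it did for 26.3% of the 16374 genes with a read in either library. With equal totals in both libraries this share was 50.7% of genes, with 8 genes of the list. With the same upper quartile it was 20.9%, and with the median ratio set to 1 it was 20.2%, each with 7 genes of the list. The 9 genes summed to 4.96 RPKM at P28 and 10.8 RPKM at P7. In a bulk library, fewer cells with a transcript and less of it per cell cannot be told apart.

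**Figure D3:**
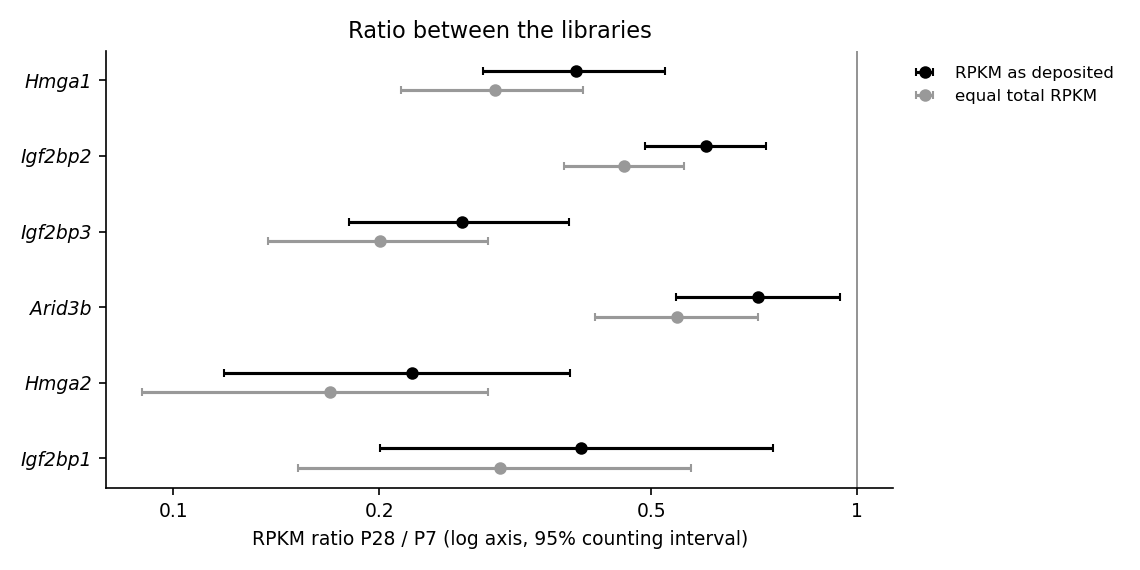
Ratio of RPKM at P28 to RPKM at P7 on a log axis with 95% exact counting intervals, for the 6 genes with reads in both libraries; black points use RPKM as deposited and grey points give both libraries the same total RPKM. As deposited, the ratios run from 0.223 for Hmga2 to 0.716 for Arid3b, and equal totals move all of them further below 1.

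On the scale of log2(RPKM + 1), which understates the difference of low genes, calls at 2-fold were made for genes that reached 1 RPKM at P28, at P7 or in both. None of the 4 genes that met this filter was called lower or higher, while 1.96% of 9653 genes were called lower (189) and 1.18% higher (114). Their log2 ratios were -0.93 for Hmga1, -0.84 for Igf2bp3, -0.52 for Igf2bp2 and -0.27 for Arid3b. The median of these 4 was -0.68, against -0.08 over all 9653 genes. Igf2bp3 met the filter through its P7 level alone, so this median draws on a gene let in by the library where it was high. Over all 9 genes, the unexpressed ones included, it was -0.27. With equal totals in both libraries, which moved the median of all genes to -0.38, Hmga1 and Igf2bp3 were called lower. The split over all genes was then 448 lower and 65 higher, and with the median ratio set to 0 it was 151 lower and 144 higher.

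**Figure D4:**
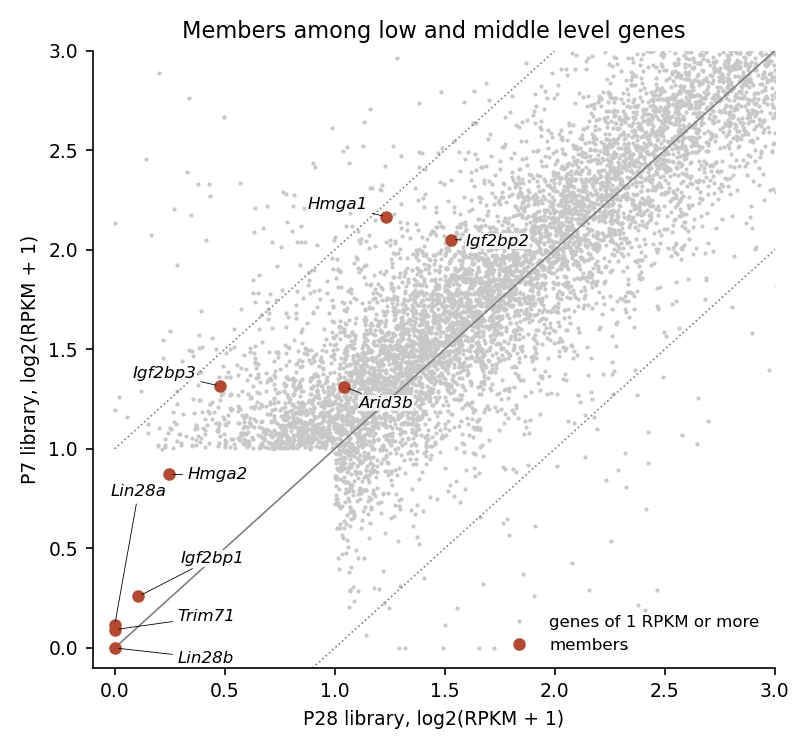
Levels as log2(RPKM + 1) in the P28 library (horizontal axis) and the P7 library (vertical axis), for genes that reached 1 RPKM in either library (grey) and the 9 genes of the list (red), cropped to low and middle levels; the solid line marks equal levels and the dotted lines 2-fold differences. Except for Lin28b at the origin, every gene of the list lies above the line of equal levels. All 9 lie within the 2-fold lines, which are drawn for RPKM + 1. The 5 genes under 1 RPKM in both libraries could not lie outside them. Among genes with reads in both libraries, the RPKM ratio of P28 to P7 without the added 1 was as low as 0.223, for Hmga2.

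The genes with the most similar levels in both libraries, by Euclidean distance of log2(RPKM + 1) over these 2 libraries, were Scel, Pgc and Marcksl1 for Hmga1 (distances 0.02, 0.04 and 0.05). For Igf2bp3 they were H2afy2, Cxxc5 and Atad5 (0.01, 0.02 and 0.04), for Igf2bp2 Mast2, Urod and Dpp3 (0.02, 0.02 and 0.03), and for Arid3b Adrbk1, Zbtb37 and Tnfsf10 (0.01 each). With 2 libraries such a distance describes a level and a ratio only.

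No gene of the let-7 machinery reached a 2-fold difference. Of 19 genes for microRNA processing and let-7 decay none was called at 2-fold, with a median log2 ratio of -0.15. Zcchc11, the terminal uridylyltransferase that LIN28A recruits to let-7 precursors, had 4.37 RPKM at P28 and 5.68 RPKM at P7. Prkra, a partner of Dicer, had 1.75 RPKM at P28 and 2.52 RPKM at P7, and the Argonaute gene Ago4 had 1.64 RPKM at P28 and 2.20 RPKM at P7. All 13 let-7 family precursor genes were listed at 0 in both libraries, and mature microRNAs were not measured here, so the let-7 level is unknown.

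Of 21 other let-7 target genes of 1 RPKM or more, 3 were called lower at P28 and none higher, with a median of -0.43. The 3 were Rrm2, a ribonucleotide reductase subunit (1.08 RPKM at P28 and 4.71 at P7), Aurkb, a mitotic kinase (0.644 RPKM at P28 and 3.10 at P7), and Thbs1, thrombospondin 1 (2.41 RPKM at P28 and 7.58 at P7). Mycn, a growth-promoting transcription factor, had 0.110 RPKM at P28 and 1.18 RPKM at P7, a log2 ratio of -0.97. Aurkb and Mycn passed the filter through P7 alone, so a higher call was not possible for them. At least 1 seed match was found in 19 of the 28 genes on that list. Over the genes of 1 RPKM or more with an annotated 3′ UTR, the median log2 ratio hardly moved with the number of matches. It was -0.08 for 8419 genes with none, -0.09 for 848 with 1, -0.09 for 101 with 2, and -0.08 for 14 with 3 or more. These groups also differed in 3′ UTR length, with a median of 1111 bases for none and 5371 for 3 or more. The genes of the fetal list with 2 or more matches were below the filter. A part of let-7 was not tested.

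Relatives of the 9 genes also had few 2-fold calls, and many had counting intervals below 1, as did 34.1% of the 9590 genes of 1 RPKM or more with a length. The interval lay below 1 for 10 of 11 other ARID genes, 5 of 7 other high mobility group genes, 14 of 26 other RNA-binding genes and 6 of 12 m6A genes. Of 7 other high mobility group genes 1 was called lower, Hmgn2, a nucleosome-binding protein, with 12.6 RPKM at P28 and 28.8 RPKM at P7, and none was called higher. Hmgb2, a chromatin protein abundant in dividing cells, had 5.11 RPKM at P28 and 9.45 RPKM at P7. Of 11 other ARID genes none was called. Arid3a, a paralog of Arid3b, had 0.488 RPKM at P28 and 1.11 RPKM at P7. Of 26 other RNA-binding proteins of mRNA stability none was called lower and 1 higher, Zfp36, which promotes the decay of AU-rich messenger RNAs (122 RPKM at P28 and 43.5 at P7). None of 12 genes for writing, erasing and reading the m6A mark, which IGF2BP proteins also read, was called.

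In the IGF2 axis and fetal growth list 8 of 14 genes were called lower and 1 higher, with a median of -1.24. Over all 17 genes of that list, without the filter, the median was -0.76. Among the called genes, Igf2, Mest, Dlk1 and Peg3 (0.981 RPKM at P28 and 5.12 at P7) passed the filter through P7 alone and Zbtb16 through P28 alone. For these genes a call in the opposite direction was not possible. Igf2, the transcript after which the IGF2BP proteins are named, had 0.490 RPKM at P28 and 2.25 RPKM at P7. The imprinted gene Mest had 0.263 RPKM at P28 and 5.79 RPKM at P7. Dlk1, an imprinted gene of the Notch ligand family, was listed at 0 RPKM at P28 and had 3.40 RPKM at P7. The higher gene was Zbtb16, a zinc finger transcription factor, with 4.52 RPKM at P28 and 0.222 RPKM at P7.

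**Figure D5:**
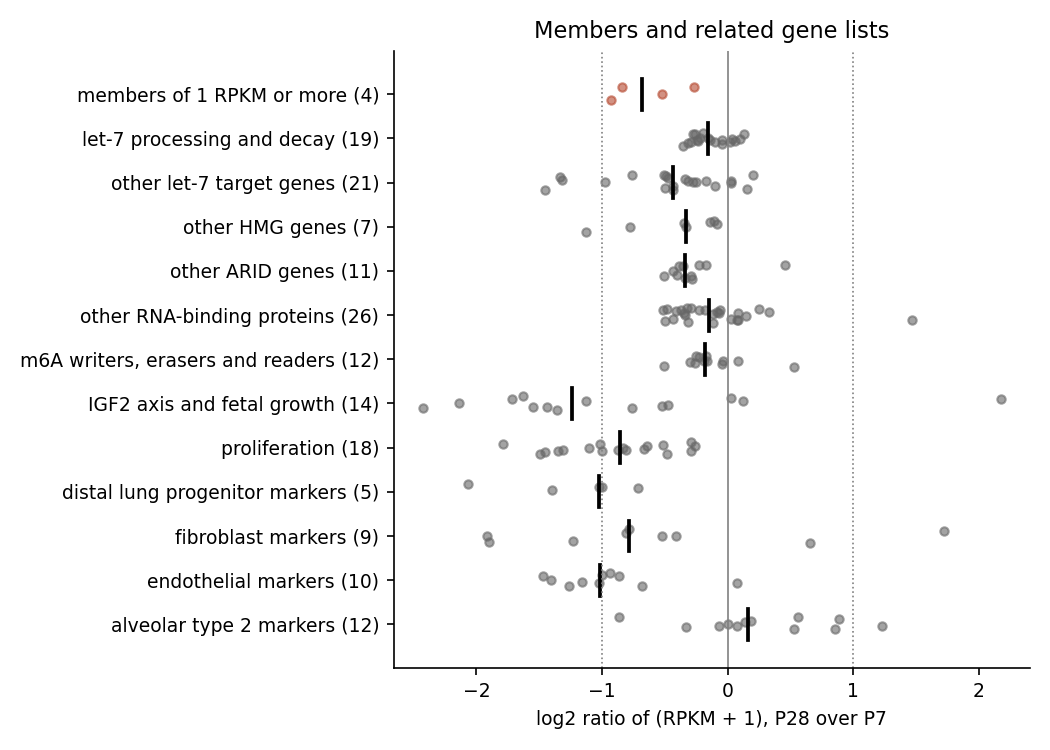
Log2 ratio of (RPKM + 1), P28 over P7, for each gene of 1 RPKM or more in the list of fetal genes (red, top) and in 12 related or marker lists (grey), with the number of genes in brackets, the list median as a black bar and dotted lines at 2-fold. The medians of the processing, m6A and other RNA-binding lists lie between -0.18 and -0.15, and those of the fetal growth, progenitor and endothelial lists at or below -1.01. Genes that passed the filter through 1 library alone are included.

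Other gene groups were lower in the same library, though some lists share genes. Rrm2 counts as lower in both the proliferation and the other let-7 target lists. Igfbp2 counts as lower in both the fetal growth and the alveolar type 1 lists. Of 18 proliferation genes 8 were called lower and all 18 had a log2 ratio below 0, with a summed level of 48.5 RPKM at P28 and 107 RPKM at P7. Several of them, such as Gins2 (0.818 RPKM at P28 and 3.63 at P7), passed the filter through P7 alone, which fixed their sign. Mki67, the proliferation marker, had 3.56 RPKM at P28 and 14.8 RPKM at P7. Of 5 distal lung progenitor markers 4 were called lower, among them Sox9, with 0.255 RPKM at P28 and 4.25 RPKM at P7. Of 10 endothelial markers 6 were called lower, with 28.3 RPKM summed over 12 genes at P28 and 59.2 RPKM at P7, and all 12 had reads in both libraries. Of 9 fibroblast markers 3 were called lower and 1 higher, with 31.6 RPKM summed at P28 and 57.0 RPKM at P7. The fibroblast sum is over 12 genes, of which 2 were at 0 at P7 and none at P28. Among the called genes of these lists, Sox9, Emcn, Cldn5 and Postn passed the filter through P7 alone, and Inmt through P28 alone. For these a call in the opposite direction was not possible. Of 6 measured erythroid markers all 6 were called lower, with a summed level of 1.73 RPKM over 8 genes at P28 and 47.9 RPKM at P7. These entries are not 6 separate measurements. Hbb-b2 and Hbb-bt had the same values in both libraries. The P28 to P7 ratio was 0.0233 for both Hba-a1 and Hba-a2, and 0.0205 for both Hbb-b1 and Hbb-bs. The sum may therefore count the same reads more than once. All 6 passed the filter through P7 alone, so a higher call was not possible for them. Alveolar type 1 cell markers were lower as well, with 3 of 9 called, a median of -0.86 and a summed level of 203 RPKM at P28 and 352 RPKM at P7. Airway markers went the other way: 4 of 6 were called higher and none lower, and the club cell gene Scgb1a1 had 18104 RPKM at P28 and 6764 RPKM at P7. Of 5 measured leukocyte markers 1 was called lower, Srgn (1.34 RPKM at P28 and 4.36 at P7), and 1 higher, Lyz2, which type 2 cells also express (5809 RPKM at P28 and 1635 at P7). Csf1r, the receptor of macrophage growth factor, had 1.49 RPKM at P28 and 2.23 RPKM at P7, while Marco and C1qa were at 0 at both ages. Cd68, another macrophage marker, went the other way, with 1.08 RPKM at P28 and 0.455 RPKM at P7, from 33 reads at P28 and 10 at P7. The part of these groups in the levels of the 9 fetal genes was not tested.

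The 300 bases around the transcription start (250 before and 50 after) were matched in RefSeq for 8 of the 9 genes. They held 8 CpG dinucleotides in Lin28b, 10 in Lin28a and 12 in Hmga2, against a median of 7 over 27018 promoters. Trim71 had 19, Igf2bp3 and Arid3b 25 each, Hmga1 40 and Igf2bp2 47, a number that 1.41% of promoters reached. The 2 genes with the most CpG, Igf2bp2 and Hmga1, were also the 2 with the highest levels in both libraries. That is a description of 8 genes, with 1 annotated start each. The Lin28b window (chromosome 10, 45470152 to 45470451, minus strand) lies inside the gene, and its outer end at 45486395 was not examined.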

How the data were processed

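Total RNA of sorted cells was made into Nextera XT libraries and sequenced as paired reads, per the labels' protocols. TopHat, TopHat2 2.0.9 and GRCm38 (mm10) are named, without roles, per the submitters' processing notes. The authors deposited RPKM values, 1 column per library, per the file headers; the counting program, annotation, sort markers and use of strand were not given in the sources used here, and 0 columns were left unused. Read numbers were recovered from the RPKM steps with GENCODE M21 lengths. Merged exons of RefSeq-linked transcripts put 56.5% (P28) and 58.3% (P7) of low values within 0.05 of a whole read (chance 10%). The mean transcript length first planned gave 10.9% and 11.1% for genes with several transcripts, so the merged length was chosen after seeing the data. Read numbers of Hmga1, Hmga2 and Trim71 fell over 0.1 from a whole number and are approximate. Ratio intervals are 95% Clopper-Pearson intervals of the read share, and level intervals are exact Poisson. The functions were tested on simulated data. The log2 ratio used a pseudocount of 1 RPKM and a filter of 1 RPKM. The 9 genes are all named. In other lists up to 4 genes with the largest absolute log2 ratio could be named, with defining markers. Igf2 and Peg3 were added after their values were seen. Members and lists were chosen with earlier results of these data known. Alternatives changed the pseudocount, filter, scaling, read floor, length and seed match. Python 3.11.15, scipy 1.17.1 and Biopython 1.88 were used. One related result is not reported here.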

Additional observations from a re-analysis of the deposited data

How the results depend on the processing

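As reported, 0 of 4 genes were called lower at 2-fold and 0 higher. A pseudocount of 0.1 and equal totals each gave 2 lower, Hmga1 and Igf2bp3 in both settings, and the other settings gave 0, with no gene left to test above a filter of 5 RPKM. Without the filter, the 5 added genes were under 1 RPKM in both libraries and could not reach 2-fold. With a pseudocount of 5, no gene under 5 RPKM in both libraries could reach it, and all genes of the list were under that level. No setting gave a higher call. Over all genes, 189 were called lower and 114 higher as reported, against 530 and 226 with a pseudocount of 0.1, 34 and 39 with a pseudocount of 5, and 93 and 73 with the filter of 5 RPKM. The median log2 ratio of -0.68 was -1.005 with a pseudocount of 0.1, -0.25 with a pseudocount of 5, -0.27 without the filter and -0.91 with equal totals. The 8 genes with reads kept log2 ratios below 0 in all 5 settings of pseudocount and scaling. A pseudocount cannot change this sign, and equal totals lower P28 against P7. Only the upper quartile and the median ratio set to 0 could have changed it. With the median ratio set to 0, Trim71 was at -0.009 and Lin28a at -0.03. The count of genes at or below 3 reads was 1 at P7. It became 2 with a floor of 10 reads, 5 under 1 RPKM, 2 with the mean transcript length and 3 with the shortest. At P28 the count was 3, and became 6 under 1 RPKM and 4 with the shortest transcript length. The shifts with floor, length and pseudocount follow from those settings' construction. Equal totals lower all RPKM ratios without a pseudocount by the same factor, and move the log2 ratios of RPKM + 1 less for low genes. The scalings of the counting intervals and the merged length were chosen after seeing the data. No paired analysis was possible because each age has 1 library, so no library could be left out either. At this depth the floor of 3 reads on a gene of 1 kilobase stands for 0.122 RPKM at P28 and 0.170 RPKM at P7.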
